A study of Mus musculus with 20 samples.

Results

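Of the CCCGGG-bounded stretches of the mouse genome that the methylation assay could have read, some gave almost no reads in any brain cell preparation. These low-count intervals were chosen by their measured read counts: they are the autosomal intervals of 100 to 3000 bp whose raw read counts summed to 5 or less over all 20 libraries. They numbered 8596 of the 46322 autosomal intervals of that length range (18.6%), in a table of 50782 intervals. Their counts are therefore given as a description, and so are the comparisons with the other 37726 intervals, because intervals share sites and are not replicates. The libraries came from hypothalamus of male C57BL/6 mice, an inbred strain, taken at postnatal day 0 (P0, newborn) or postnatal day 21 (P21). Nuclei stained for NeuN, a nuclear protein of neurons, were sorted by fluorescence, and those without the stain are the non-neurons. The 4 groups were P0 neurons, P0 non-neurons, P21 neurons and P21 non-neurons, all untreated as far as the labels say, with 5 libraries each, and every sorted sample pooled 2 hypothalami. DNA methylation counts hold no marker transcripts, so the sort was not checked here, and the labels do not say whether equal replicate numbers share a pool.

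DNA methylation in mammals sits mainly on cytosines next to guanines, and most such sites outside CpG-rich promoters are methylated. The assay cuts CCCGGG sites first with SmaI, an enzyme blocked by methylation, and then with XmaI, which cuts the same sequence when it is methylated and leaves ends to which adaptors are ligated. Amplification of an interval therefore needs methylation at its left and its right site in one molecule, and CpG-rich promoters that are free of methylation are known to stay silent in it. Absence of reads has other possible sources too: the amplified products were sheared to between 200 and 500 bp before sequencing, per the labels, and a short read from repeated DNA can map to many places. The counting of reads that map to several places is not described in the sources. The intervals are given by position on the mm9 assembly, and no gene is assigned to them.

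Reads were nearly absent from these intervals and common in the rest. The 20 libraries held 147488978 reads, 5663740 to 9998110 each, and 9951 of them fell in low-count intervals, which is 67.5 CPM (counts per 1000000 reads). No read in any library was found for 4774 of the 8596 (55.5%), and totals of 1, 2, 3, 4 and 5 reads were found for 1052, 973, 704, 624 and 469. Just outside the limit, 440 intervals had 6 reads and 352 had 7. A total of 5 reads comes to 0.0339 CPM, and a total of 0 allows up to 0.0203 CPM (3 reads, counting error only). The other intervals had a median of 532 reads, or 3.61 CPM, and 64.8% of them had 200 or more reads in all, called well covered here (10 reads per library). None of the low-count intervals entered the tests below. At the limit itself the properties changed gradually: median length was 201 and 217 bp at totals of 4 and 5, and 232.5 and 249 bp at 6 and 7.

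A single length made up the largest part of the set. Intervals of exactly 156 bp numbered 5179, against 164 of 155 bp and 68 of 157 bp, and the next most frequent length was 201 bp with 344. Of the 5179, 3191 were low-count (61.6%), and they were 37.1% of all low-count intervals but 5.27% of the others. Within this length 2455 intervals had no read at all and 204 were well covered, with a highest total of 4485 reads. The 156 bp intervals lay at recurring distances from each other. Among the low-count ones, 86.2% had another listed interval exactly 52 bp away, and among the 156 bp intervals with more reads 54.9%. After a 156 bp interval and a 52 bp gap the next listed interval was again 156 bp long in 94.0% of 2675 cases. The table lists no interval under 60 bp, so the 52 bp pieces are not in it and these neighbours do not count as touching. Of 4445 autosomal gaps of under 60 bp, 2863 were 52 bp and 530 were 45 bp, and the next most frequent gap, 50 bp, occurred 36 times. Pieces of 156 and 52 bp add up to 208 bp, and of 156 and 45 bp to 201 bp. Intervals of 208 bp (337) and 201 bp (344) were also among the most frequent lengths.

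Tandem repeats, in which one unit follows another, place cut sites at such fixed spacings. Known examples in mouse are the promoters of L1 retrotransposons, which are built of repeated units. Which repeat the 156 bp intervals belong to was not tested, since no mm9 sequence was used here. An example of the same spacing is shown from RefSeq promoter windows of the GRCm38.p6 build, searched for CCCGGG (the site is its own reverse complement, so both strands were covered). The site was present in 13.5% of 32851 windows of 300 bases. Among 1012 pairs of successive sites in them, 1 pair lay 156 bases apart, in the window of A230004M16Rik on chromosome 11. It is shown because 3 sites in it follow one another at 156 and 52 bases, a spacing common among the 156 bp intervals, low-count or not. The first 250 bases, chr11:41710094-41710343 on the plus strand, read as follows, with the 3 sites in capitals:
A230004M16Rik: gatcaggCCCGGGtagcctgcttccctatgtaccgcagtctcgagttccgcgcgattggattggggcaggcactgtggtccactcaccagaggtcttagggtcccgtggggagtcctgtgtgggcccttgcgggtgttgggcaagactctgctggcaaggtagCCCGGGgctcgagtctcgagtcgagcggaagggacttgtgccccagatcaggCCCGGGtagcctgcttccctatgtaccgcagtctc
The sites start at positions 8, 164 and 216, counted from 1 at the 5′ end. From 7 bases before the first and the third site onward the window repeats itself over 77 bases without a mismatch, and 208 bases separate equal positions. A run of 20 bases of this unit was found in 6 other promoter windows, of 5 other genes. This window lies on another build and was not matched to a listed interval. Whether the low-count intervals of 156 bp hold this sequence was not tested.

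Rows of several 156 bp intervals, each 52 bp from the next, were low-count more often than single ones. Intervals outside such rows were low-count in 35.7% of 1502 cases, and those in rows of 2 in 64.7% of 1074. The share was 71.1% in rows of 3, 73.1% in rows of 4 and 75.2% in rows of 5, and it reached 83.4% of the 658 intervals in rows of 6 or more. The longest row held 35 intervals. The position within a row showed the same order: with a 52 bp gap at both ends 83.0% of 1503 intervals were low-count, with a 52 bp gap at 1 end and no 45 bp gap 64.7% of 2249. With a 45 bp gap and no 52 bp gap the share was 33.5% of 519, and with neither gap 32.6% of 817. Well covered intervals numbered 7 of the 1503 with a 52 bp gap at both ends and 55 of the 519 with only a 45 bp gap. Among 1162 rows of 2 or more, 436 were low-count throughout, 94 held no low-count interval and 632 held both kinds. Both kinds means totals on either side of the limit, which can be as close as 5 and 6 reads. A well covered interval was present in 43 of the 1162 rows.

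**Figure D1:**
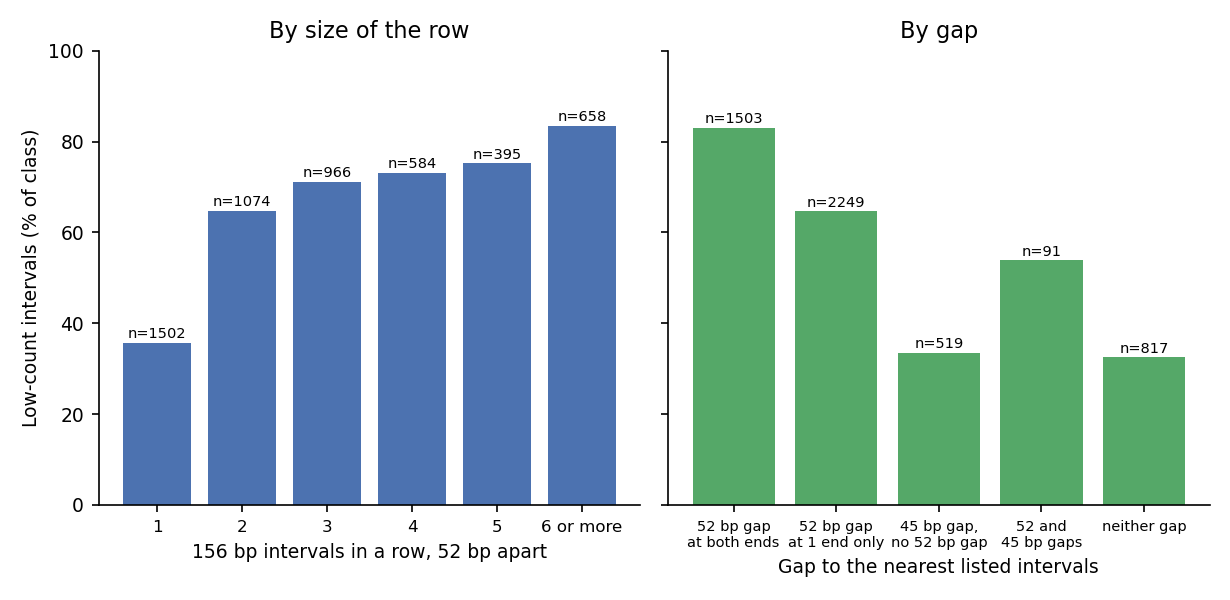
Share of 156 bp intervals that were low-count (y axis, percent), left by the number of 156 bp intervals that follow one another at 52 bp (x axis) and right by the gaps to the nearest listed intervals, with the number of intervals above each bar. The share was 35.7% for single intervals and 83.4% for rows of 6 or more, and 83.0% with a 52 bp gap at both ends against 33.5% with only a 45 bp gap.

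Apart from this repeated length, low-count intervals were short. Their median length was 156 bp with quartiles of 156 and 253 bp, against 990 bp (367 to 1929 bp) for the others. Without the 156 bp intervals it was 212 bp against 1082 bp, and 77.5% of the 5405 remaining low-count intervals were under 400 bp against 22.6% of the others. Of intervals from 100 to below 200 bp other than 156 bp, 44.6% were low-count (95% exact binomial interval 43.3% to 46.0%, which covers counting only), of 200 to below 400 bp 26.3% and of 400 to below 800 bp 8.50%. The share was 3.52% at 800 to below 1200 bp and lay between 2.14% and 2.84% in the longer classes, with no further fall. Lengths ran from 100 bp, shared by 23 low-count intervals such as chr1:52783659-52783759 with 2 reads, to 2987 bp at chr2:145729231-145732218 with 5 reads. Intervals under 100 bp were outside the rule, and 1626 of the 2359 autosomal ones had 5 reads or fewer. The shortest products lie below the size to which the products were sheared. The part of that step in the length pattern was not tested.

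**Figure D2:**
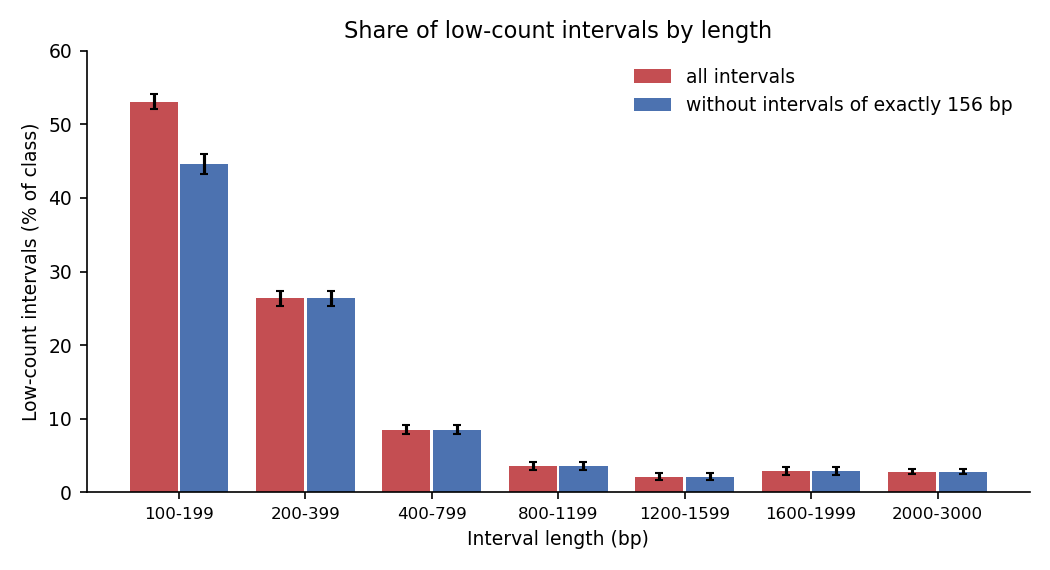
Share of autosomal intervals that were low-count (y axis, percent of the length class) by interval length in bp (x axis), for all intervals and without those of exactly 156 bp. Bars are shares and whiskers 95% exact binomial intervals. The share without 156 bp fell from 44.6% below 200 bp to 2.14% at 1200 to below 1600 bp.

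Repeated lengths also marked the long members. A low-count interval counted as repeated when an autosomal interval of exactly the same length lay on the same chromosome within 1 Mb. This held for 46.2% of low-count intervals and 9.01% of the others, and without the 156 bp intervals for 15.2% and 4.14%. Below 200 bp, with 156 bp left out, the shares were close, at 11.5% of low-count intervals and 12.4% of the others. They parted with length. From 400 to below 800 bp 19.1% of low-count intervals had such a partner against 3.33% of the others, and from 2000 to 3000 bp 29.3% of 249 had one against 1.34%. Over all 1216 low-count intervals of 400 bp or more it was 23.7% (288 intervals) against 2.27%. Of the 288, 68 lay in 1 chain on chromosome 6, described below. How far the difference in long intervals rests on that chain was not tested. Split by these properties, the low-count intervals were 3191 of 156 bp, 819 of another length repeated within 1 Mb, and the rest without either. Of the rest, 1854 touched another low-count interval, 1545 touched only intervals outside the low-count set and 1187 touched none. No read at all was found for 76.9% of the 156 bp class, 65.7% of the other repeated lengths, and 43.2%, 31.7% and 41.3% of these last 3 kinds. Intervals outside the set include those under 100 bp, also where they had 5 reads or fewer.

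Low-count intervals that were not 156 bp long lay in dense groups of sites. Intervals touch when one begins at the cut site where the other ends. Of the 5405 low-count intervals of other lengths 73.8% touched a listed interval, against 55.8% of the others, and 49.0% stood in chains of 3 or more touching intervals, against 30.1%. They had a mean of 2.69 other listed intervals within 5 kb of their midpoint against 1.45. The share that was low-count rose with this density, from 6.15% of 15199 intervals with none within 5 kb to 10.98% with 1, 16.9% with 2 and 33.2% of 831 with 8 or more. Dense groups also hold shorter intervals, but the rise was present within both length ranges: from 19.2% to 42.9% below 400 bp, with the highest share, 51.2%, at 6 neighbours, and from 2.66% to 22.75% at 400 bp or more. The densest class held 91 low-count intervals of 400 bp or more. A single chain on chromosome 6, described below, holds 97 low-count intervals, of 472 bp or more. How far the rise in long intervals rests on that chain was not tested. The 156 bp intervals differed, since 6.83% of the low-count ones touched a listed interval and 87.8% had one within 1 to 59 bp. For the 156 bp intervals with more reads the shares were 16.2% and 66.3%. Isolated members existed as well. The 3 farthest from any listed interval were all 156 bp long: chr1:125770566-125770722 with 2 reads, 767825 bp away from the nearest, chr16:45056293-45056449 with 0 reads and chr10:55863953-55864109 with 0 reads, at 411229 and 393181 bp.

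The reads of the touching neighbours went with membership at every length. With 156 bp intervals left out, 55.5% of the 3993 intervals that touched a low-count interval and no well covered one were low-count themselves. The share was 22.0% of 6733 whose neighbours were all neither low-count nor well covered. It was 8.22% of 17205 with no touching neighbour and 2.20% of 13212 with a well covered neighbour. Neighbours under 100 bp are outside the low-count rule, so those with 5 reads or fewer could fall in the 22.0% class. How far they raise its share was not tested. Below 200 bp the 4 shares were 85.6%, 60.8%, 30.7% and 12.3%, and from 2000 to 3000 bp 22.3%, 2.79%, 3.05% and 0.366%. The order of the first and the last class was thus the same in short and long intervals, whereas the 2 middle classes did not differ beyond their binomial intervals at 1200 bp and above. Touching another low-count interval was found for 40.6% of the low-count intervals without 156 bp and for 5.32% of the others. Of 3770 autosomal chains of 3 or more intervals, 1448 held a low-count interval, and 110 held no other kind. A well covered interval was present in 30.7% of the chains with a low-count interval and in 86.7% of the 2322 chains without one.

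**Figure D3:**
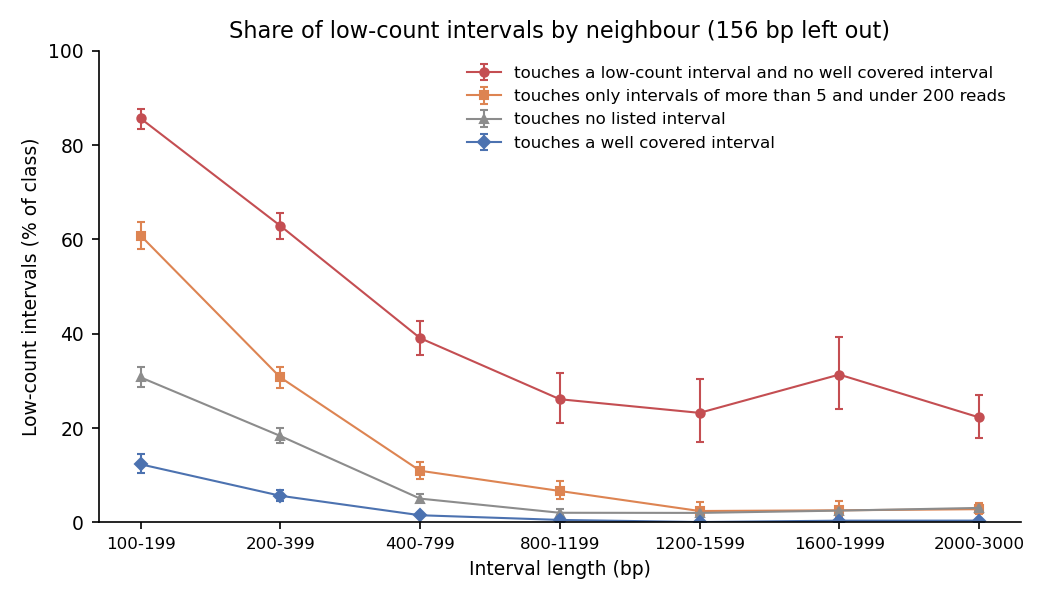
Share of intervals that were low-count (y axis, percent) by length in bp (x axis) and by the reads of the touching neighbours (4 lines), intervals of 156 bp left out. Points are shares and whiskers 95% exact binomial intervals. Below 200 bp the share was 85.6% beside a low-count interval and 12.3% beside a well covered one.

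A cut site shared with a well covered interval was rare. By the design of the assay such a site was cut as methylated in the molecules that gave the well covered interval its reads. Of the low-count intervals 324 (3.77%) had such a site, against 34.7% of the others. The difference was present in each length class, at 5.58% against 32.04% below 200 bp without 156 bp and at 4.82% against 37.3% from 2000 to 3000 bp. In 305 of the 330 pairs (92.4%) the well covered neighbour was the longer interval. The median length in these pairs was 1512.5 bp for the neighbours, and that of the 324 low-count intervals was 195.5 bp. The neighbours' median total was 463 reads and the highest 15587. No read was found for 100 of the 324.

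At 6 low-count intervals both cut sites were shared with a well covered interval, so that both sites were amplified outward and almost no reads came from between them. This compares with 2189 of the other intervals. The interval chr5:113567542-113567834 (292 bp) had 4 reads in 3 libraries, between neighbours of 2743 bp with 394 reads and 2347 bp with 359 reads. No read was found at chr6:118147240-118147370 (130 bp), between neighbours with 1909 and 310 reads. The larger of these was read in every group, with 392 reads at P0 and 563 at P21 in neurons, and 380 and 574 in non-neurons. The interval chr1:66521587-66521693 (106 bp) had 2 reads between neighbours of 837 and 282 reads. The same arrangement was found at chr4:125933272-125933581 (309 bp, 2 reads) between 277 and 235 reads, and at chr9:44529391-44529505 (114 bp, 2 reads) between 307 and 228 reads. All of these had longer neighbours on both sides, of 1266 to 2845 bp. The count depends on the limit for well covered: it was 16 at 100 reads and 0 at 1000.

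Runs of touching low-count intervals were mostly short, but a few were long and regular. There were 997 runs of 2 or more, holding 2380 low-count intervals, and 70 of them had 4 or more. The longest stood in 1 chain of 124 touching intervals at chr6:114442474-114586754, which spans 144280 bp. In this chain 97 intervals were low-count, 60 had no read and 2 were well covered. Lengths recurred along it: 51 of the 124 intervals were within 2 bp of the most frequent length, 473 bp. Of the 51, 41 were low-count, while one of 472 bp, chr6:114507410-114507882, had the most reads of the chain, 3296. The longest run was chr6:114544179-114566506 with 20 low-count intervals and 14 reads in all, followed by chr6:114571424-114586281 with 16 intervals and 17 reads, chr4:88419611-88451803 with 11 intervals and 1 read, chr6:114512341-114524690 with 11 intervals and 3 reads, and chr6:114492917-114505496 with 10 intervals and 8 reads. The run on chromosome 4 was the most even, its 11 intervals measuring 2910 to 2937 bp.

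**Figure D4:**
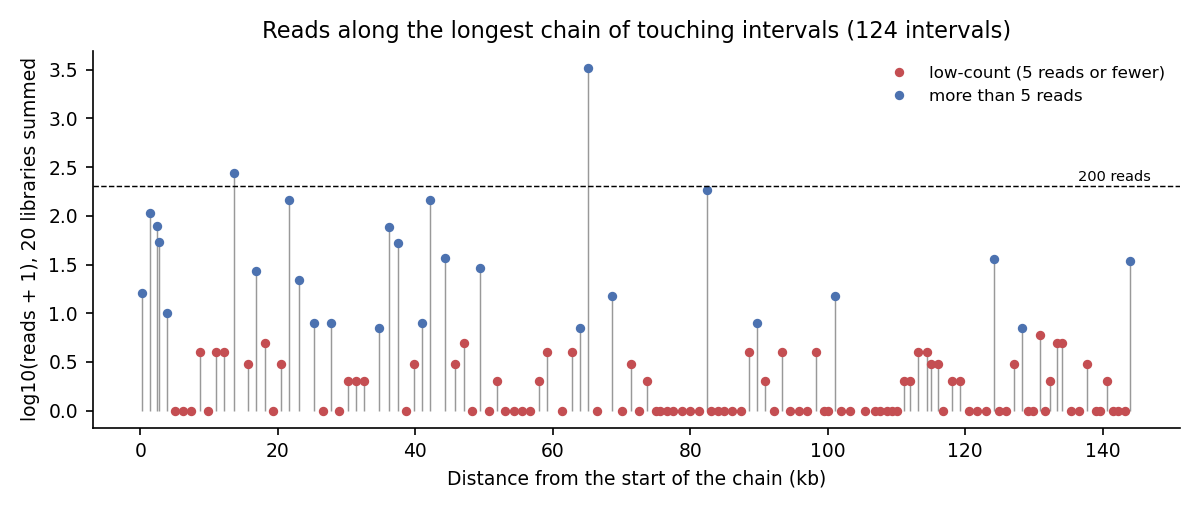
Summed reads of 20 libraries on a log10(reads + 1) axis along the chain of 124 touching intervals on chromosome 6, by distance from its start in kb. Each point is 1 interval, coloured by whether it had 5 reads or fewer. The 97 low-count intervals are spread along the chain, and 2 intervals exceed 200 reads.

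Low-count intervals were present on every autosome and crowded in a few places. Chromosomes 4, 2 and 3 held the most, 730, 675 and 637. As a share of the intervals listed, chromosome 3 stood highest at 26.96% and chromosome 11 lowest at 13.8%. Without the 156 bp intervals the share ran from 10.99% on chromosome 8 to 16.3% on chromosome 6, with chromosome 3 at 16.1%, and within the 156 bp intervals from 50.0% on chromosome 19 to 70.8% on chromosome 7. By windows of 1 Mb, the most were in the window from 114 to 115 Mb of chromosome 6, with 97 of 147 intervals. The window from 42 to 43 Mb of chromosome 4 had 62 low-count intervals of 67, 61 of them without any read and none of 156 bp. All 62 had an interval of their own length within 1 Mb. The window from 6 to 7 Mb of chromosome 3 had 36 of 58, and 30 of these were 156 bp long. These windows thus held repeated lengths, in 68 of 97, 62 of 62 and 36 of 36 low-count intervals.

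The few reads that did fall in low-count intervals were not evenly spread over the groups. P0 neurons had 73.4, 83.1, 85.4, 79.2 and 94.8 CPM of such reads in replicates 1 to 5, and P0 non-neurons 157.4, 98.9, 120.8, 78.6 and 107.4. P21 neurons had 25.9, 42.01, 27.4, 36.0 and 30.6, and P21 non-neurons 66.0, 56.4, 48.8, 53.4 and 40.7. All 10 P0 libraries lay above all 10 P21 libraries, while the cell types overlapped at each age. Group means were 83.1 ± 7.93, 112.6 ± 29.4, 32.4 ± 6.63 and 53.1 ± 9.35 CPM in the same order (SD, n = 5 each). No test was made, since these reads chose the members. Intervals with 6 to 20 reads, just outside the rule, had the same order of means, at 397.8 ± 30.3, 516.4 ± 131.3, 198.3 ± 24.9 and 265.3 ± 42.6 CPM. Of the 3822 low-count intervals with a read, 1841 had reads in 1 group only, 1497 in 2, 445 in 3 and 39 in all 4. Of the 1797 with 3 to 5 reads, 37 had all of them in 1 library, so most traces of that size came from several samples. The 1052 with a single read can come from only 1 library.

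**Figure D5:**
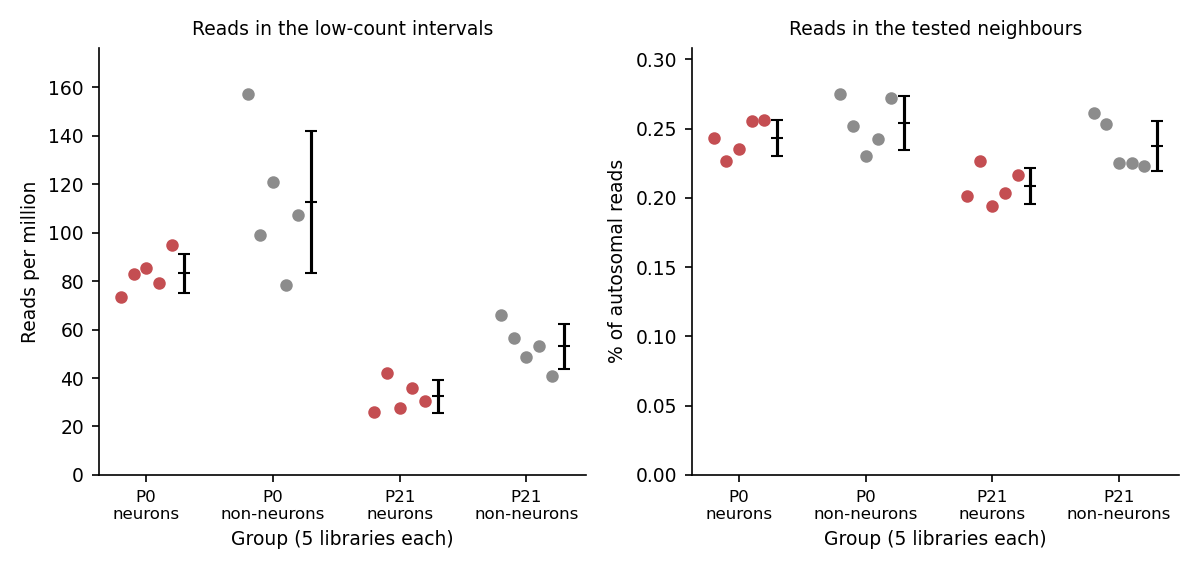
Left, reads in low-count intervals in CPM, and right, percent of autosomal reads in the tested intervals that touch a low-count interval, for 5 libraries in each of 4 groups (points) with mean and SD (bars beside them). On the left all P0 libraries, from 73.4 upward, lie above the P21 libraries, which reach 66.0. On the right P21 neurons have the lowest mean, 0.209%.

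The intervals that touch a low-count interval were used to ask how the surroundings of these silent stretches differed with cell type and age. Their counts were not part of the rule. Of 2724 such intervals that were not low-count themselves, 413 (15.2%) held enough reads for the test, edgeR's quasi-likelihood fit of all 20 libraries with Benjamini-Hochberg adjustment over 26679 tested intervals. These 413 neighbours had a median length of 1553 bp against 1190 bp for all tested intervals, and fewer reads (median total 348 against 1372). With age they fell more often than they rose. In neurons 239 of 413 changed between P0 and P21 (57.9%, against 57.3% of all tested intervals), of which 180 fell (43.6%, against 26.3%) and 59 rose (14.3%, against 31.0%). In non-neurons 205 changed (49.6%, against 54.3%), 147 falling (35.6%, against 25.8%) and 58 rising (14.0%, against 28.5%). The median log2 fold change was -0.50 in neurons and -0.39 in non-neurons, while that of all tested intervals was 0.06 and 0.03. The split depended in part on scaling: with library totals in place of TMM factors, which moved the median of all intervals by 0.20 and 0.22, 139 fell and 77 rose in neurons and 112 fell and 77 rose in non-neurons.

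The fall of the neighbours was not limited to one read level or length. In the lowest quartile of tested intervals by mean level, which held 248 of the 413, 36.3% of the neighbours fell in neurons against 18.2% of all, and in the next quartile 55.1% of 107 against 18.9%. In the third quartile it was 26 of 50 against 19.9%. The highest quartile held 8 neighbours, too few to compare. By length, neighbours of 1600 to 3000 bp fell in 39.7% of 194 cases against 16.8% of all tested intervals of that length, and those under 800 bp in 52.2% of 92 against 34.5%. In non-neurons the shares falling were 31.0%, 43.0% and 40.0% in the first 3 quartiles against 15.3%, 18.1% and 21.6%. No test compared the neighbours with other intervals. The comparisons with age in the 2 cell types share no library, and the labels give no preparation batch. At P0 the libraries of both cell types nevertheless deviated together by sets of replicate numbers, as given below with the processing.

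Between cell types the share of neighbours called lay below that of all tested intervals, a difference that was not tested and that was not present at every read level. At P0 18 of 413 were called (4.36%, against 9.79% of all tested intervals), 10 higher (against 6.92% of all) and 8 lower in neurons (against 2.87%), and with library totals 7 were higher and 10 lower. At P21 110 were called (26.6%, against 35.8%), 38 higher (9.20%, against 20.8%) and 72 lower in neurons (17.4%, against 15.0%). The interaction of cell type and age was called at 31 (7.51%, against 14.1%), positive at 15 (against 10.9% of all) and negative at 16 (against 3.24%). Neighbours lie at low read levels, where fewer intervals are called in all 5 comparisons. At P0 4.03% of neighbours and 3.27% of all tested intervals were called in the lowest quartile of level, and 6.54% and 6.16% in the next. At P21 the shares were 20.2% and 22.9% in the lowest quartile, and 36.4% and 32.1% in the next. In the third quartile the neighbours lay below all tested intervals. There 0 of 50 neighbours were called at P0 against 12.96% of all, and 16 of 50 at P21 against 40.9%. For the interaction it was 4 of 50 against 18.3%, while the lowest quartile had 6.05% against 6.51% and the next 10.3% against 11.7%. The highest quartile held 8 neighbours, too few to compare.

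Several neighbours lost most of their reads by P21. The interval chr15:79781893-79783253 touches a low-count interval of 2971 bp with 2 reads, chr15:79783253-79786224. Its normalised read counts in CPM (TMM-scaled) were 20.3, 19.1, 14.4, 18.8 and 20.7 in P0 neurons and 3.03, 2.72, 2.45, 3.502 and 2.81 in P21 neurons, with no overlap. On the log2 scale the difference was -2.68 ± 0.17 (SE, adjusted p = 4.55e-17 by edgeR). In non-neurons it went from 23.6, 23.5, 18.0, 16.6 and 21.1 to 4.58, 4.33, 4.56, 3.46 and 4.09 CPM, a log2 difference of -2.28 ± 0.16 (SE, adjusted p = 6.08e-15 by edgeR). Thus both cell types moved from about 20 CPM to under 5. The interval chr7:134890635-134891296, beside a low-count interval of 307 bp with 4 reads, fell in neurons from 21.1 ± 2.54 to 4.34 ± 1.16 CPM (SD over 5 libraries each), a log2 difference of -2.27 with adjusted p = 9.8e-15 by edgeR. At P21 it was lower in neurons than in non-neurons, at 8.95 ± 1.79 CPM (log2 difference -1.03, adjusted p = 6.89e-06 by edgeR). Non-neurons at chr3:89182629-89183988 went from 18.4 ± 4.45 to 4.72 ± 1.16 CPM (log2 difference -1.96, adjusted p = 3.28e-11 by edgeR), beside a low-count interval of 153 bp with 1 read. At chr13:48963846-48965547, beside one of 206 bp with 4 reads, P21 neurons had 2.99 ± 0.47 CPM and P21 non-neurons 7.05 ± 2.55 (log2 difference -1.22, adjusted p = 5.23e-06 by edgeR).

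Other neighbours gained reads. The interval chr10:47389716-47390706 touches a low-count interval of 156 bp with 1 read. It rose from 14.8, 16.9, 18.7, 11.1 and 12.5 CPM in P0 neurons to 32.8, 30.4, 25.5, 32.6 and 27.1 in P21 neurons (log2 difference 1.00 ± 0.14 SE, adjusted p = 1.54e-07 by edgeR). In non-neurons it rose from 13.9 ± 1.14 to 29.9 ± 7.16 CPM (SD over 5 libraries each), a log2 difference of 1.11 with adjusted p = 3.25e-08 by edgeR. The interval chr5:114894567-114895440, beside one of 142 bp with 4 reads, rose in neurons from 10.9 ± 2.89 to 21.9 ± 2.81 CPM (log2 difference 1.01, adjusted p = 1.71e-05 by edgeR). In non-neurons chr4:50210230-50211711, beside one of 208 bp with 2 reads, rose from 10.9 ± 1.62 to 20.9 ± 2.16 CPM (log2 difference 0.95, adjusted p = 2.51e-07 by edgeR). Higher in P21 neurons than in P21 non-neurons was chr6:114507410-114507882, the interval with the most reads in the chain of 124. It had 30.1, 26.8, 33.4, 35.2 and 28.0 CPM against 11.2, 12.02, 10.7, 14.5 and 9.71 (log2 difference 1.40 ± 0.12 SE, adjusted p = 4.73e-13 by edgeR), next to a low-count interval of 2018 bp with 0 reads. Since 51 intervals of nearly its length stand in the same chain, reads of other copies may be counted in it, and its values are uncertain for that reason. Also higher was chr4:41758856-41760111, at 16.5 ± 0.84 against 9.92 ± 1.03 CPM (log2 difference 0.74, adjusted p = 0.00129 by edgeR). No neighbour met the rule for naming at P0.

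The 413 neighbours together took a small share of all autosomal reads. It was 0.243% ± 0.0129 in neurons at P0 and 0.209% ± 0.0132 at P21, and 0.254% ± 0.0194 in non-neurons at P0 and 0.238% ± 0.0183 at P21 (SD over 5 libraries). The single libraries of P0 neurons ran from 0.226% to 0.256% and those of P21 neurons from 0.194% to 0.227%, so that 1 library of each overlapped. In two-sided exact permutation tests of 5 against 5 libraries (smallest possible p = 0.00794) the difference with age in neurons had p = 0.0159 and that between cell types at P21 p = 0.0317, both 0.0635 after adjustment over 4 tests. The age difference in non-neurons had p = 0.198 (exact permutation, adjusted 0.265) and the cell types at P0 p = 0.317 (adjusted 0.317). None of the 4 passed 0.05 on this scale, although without P21 neuron replicate 2 the first 2 did (exact permutation, adjusted p = 0.0317 each). With CPM on TMM-scaled library sizes 3 passed: the sum over neighbours fell by 667.6 CPM with age in neurons and by 533 in non-neurons (exact permutation, adjusted p = 0.0159 each), and the difference between neurons and non-neurons at P21 was -147.0 CPM (exact permutation, adjusted p = 0.0212).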

How the data were processed

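The authors deposited raw read counts per SmaI/XmaI interval for 20 libraries. Whole values and unequal library sums mark them as unnormalised. The build is mm9, and the programs listed in the submitters' processing notes are Bowtie 0.12.9, FastQC 0.10.1 and cutadapt; the notes give no counting step in the sources used here. PCR reads carry no molecular identifiers, so intervals and floors cover counting error only. Column names give the age, a letter for the cell type (N, neurons; G, taken to mean the non-neurons because the series title speaks of glia) and the replicate.

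The members and lists were chosen with earlier results of these data known. Neighbours of low-count intervals were tested with edgeR 4.0.16 in R 4.3.3 (filterByExpr with a minimum count of 10 and total of 15, TMM, robust glmQLFit, 1 mean per group, glmQLFTest, Benjamini-Hochberg adjusted p under 0.05). The function was tested on simulated data. P-values measure the spread between pools of 2 hypothalami. Named regions follow a written rule: both sites well covered (5), longest runs (5), chromosomes and 1 Mb windows with most members (3 each), farthest (3), shortest and longest, and per two-group comparison the 2 called neighbours with the largest change in each direction among those with non-overlapping groups and a mean level above the median. Shares of reads were compared with exact permutation tests (scipy 1.17.1). Alternatives were other limits for members, lengths and well covered, RLE and total-count scaling, no filter, DESeq2 1.42.0, a block on replicate number, and each library left out in turn. The 156 bp class, its gaps and rows, the classes by 5 kb density and level, and the removal of the longest chain were chosen after the data were seen.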

Additional observations from a re-analysis of the deposited data

Results flagged for a closer look

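Among 48 groups of 5 libraries checked for a distant library, 3 held one, where chance alone would flag about 1 in 20 groups. At chr5:114894567-114895440, P0 non-neuron replicate 1 had 17.5 CPM with the next at 8.91, and P21 non-neuron replicate 4 had 16.05 CPM with the next at 21.3. At chr4:50210230-50211711, P21 non-neuron replicate 1 had 17.1 CPM with the next at 21.5.

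The change with age differed between the cell types at 31 of the 413 tested neighbours of low-count intervals (edgeR, adjusted p under 0.05 for the interaction). This was 7.51% of them, below the 14.1% of all tested intervals. Among the named ones it differed at chr6:114507410-114507882, where the log2 changes differed by 1.24 ± 0.17 (SE, adjusted p = 2.9e-07 by edgeR). Neurons had 23.7 ± 1.41 CPM at P0 and 30.7 ± 3.55 at P21 there, and non-neurons 21.2 ± 1.85 and 11.6 ± 1.82 (SD over 5 libraries). The interaction was -0.97 ± 0.27 at chr13:48963846-48965547 (SE; edgeR adjusted p = 0.00902) and -1.09 ± 0.23 at chr7:134890635-134891296 (SE; edgeR adjusted p = 0.000491).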

How the results depend on the processing

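Low-count intervals stayed short and rarely beside well covered ones under every limit tried, but the sizes moved, as the limits fix them. With summed counts of 0, 2, 10 and 20 in place of 5 as the limit they were 10.3% (4774 intervals), 14.7%, 22.4% and 27.4% of intervals. The shares touching a well covered interval were then 2.09%, 3.06%, 4.48% and 5.34% (32.1% to 37.9% of the others), touching another low-count interval 17.2%, 23.2%, 32.1% and 36.3%, and with a same-length interval within 1 Mb 62.3%, 52.7%, 41.6% and 38.1%. The median length was 157 bp at 10 reads and 180 bp at 20, and 1, 10 and 15 intervals had both sites shared with well covered ones at limits of 0, 10 and 20. With lengths of 60 to 3000 bp, 20.998% were low-count, 36.9% touched another and 40.8% had a same-length partner. With 200 to 2000 bp these were 2825 intervals (10.5%), with a median of 310 bp, 5.27% beside a well covered interval, 3 with both sites shared and 16.96% with a partner. Well covered set at 100 reads gave 5.99% and 16 intervals with both sites shared, and at 1000 reads 0.919% and 0. A window of 100 kb gave 38.8% with a partner. Alternatives added after the data were seen were leaving out 156 bp intervals (5405 or 13.1%, median 212 bp, 5.38% beside a well covered interval, 40.6% beside another low-count one against 27.7% with them, 15.2% with a partner), and counting gaps under 60 bp as touching (5.63%, 58.4% and 17 with both sites). Leaving out the longest chain moved none of these values beyond its interval.

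Without each library in turn, low-count intervals numbered 8661 to 8887 (18.7% to 19.2%), of median length 156 bp, with 3.54% to 3.73% beside a well covered interval, 27.6% to 28.9% beside another low-count one, 44.99% to 46.1% with a partner and 5 to 6 with both sites shared. Called neighbours then numbered 14 to 21 and 92 to 118 between cell types at P0 and P21, 226 to 255 and 188 to 216 with age in neurons and non-neurons, and 26 to 33 for the interaction. Without the read filter they were 181 at P21, 722 with age in neurons and 630 in non-neurons, of 2271 neighbours with a read. The shares were 7.97%, 31.8% and 27.7%, against 21.4%, 39.4% and 36.4% of all intervals with a read. With age in neurons the share, near that of all intervals with the filter, thus fell below it. The 127 tested neighbours of intervals with 0 reads gave 3 and 29 calls between cell types at P0 and P21, 74 and 61 with age in neurons and non-neurons, and 8 for the interaction. As shares these were 2.36%, 22.8%, 58.3%, 48.0% and 6.30%, against 4.36%, 26.6%, 57.9%, 49.6% and 7.51% of the 413. The share of reads of the 127 changed by -0.00823 percentage points with age in neurons (exact permutation, adjusted p = 0.0317). The difference in the neighbours' share of autosomal reads ran from -0.0171 to -0.00575 and from -0.0336 to -0.0231 percentage points between cell types at P0 and P21, and from -0.0394 to -0.0311 and from -0.0228 to -0.0115 with age in neurons and non-neurons. Without P21 neuron replicate 2 the first age and the P21 difference passed 0.05 (exact permutation, adjusted p = 0.0317 each). With CPM on TMM-scaled sizes the differences were -147.0 at P21, -667.6 with age in neurons and -533.4 in non-neurons. Whether equal replicate numbers mark shared pools is not known, and the samples were not treated as paired, since not every same-numbered pair correlated above 0.1. Neurons and non-neurons of one number and age correlated in their deviations at r = 0.0451 to 0.21 at P0 (3 of 5 above 0.1). At P21 r was -0.007 to 0.322 (2 of 5), and 2 of 5 neuron libraries at each age correlated best with their own number. At P0 the signs followed sets of replicate numbers. Neurons 1 to 3 correlated positively with non-neurons 1 to 3 and negatively with non-neurons 4 and 5 (neuron 2: 0.1495 with non-neuron 3, -0.1894 with non-neuron 5). Neurons 4 and 5 did the reverse (neuron 4: 0.215 with non-neuron 5, -0.230 with non-neuron 3). What these sets share is not given in the labels, and the main fit held no term for it. The replicate block was set within each age for the cell type comparisons, and across both ages for the other 3. Across ages, libraries of one number and cell type correlated in their deviations at r = -0.0831 to 0.123, so that block has little to remove. With these blocks 23, 122, 242, 206 and 32 neighbours were called in the order above. The shares were 5.57%, 29.5%, 58.6%, 49.9% and 7.75%, against 13.6%, 41.5%, 59.2%, 56.3% and 16.3% of all tested intervals. With sign flips within replicate numbers the smallest possible p is 0.0625. All 300 alternative values of the 12 named neighbour results kept direction and call. These results were picked in the same data for large, called changes without overlap, so little else could come out. Totals of 5 reads or fewer cannot show methylation differences between groups at this depth.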

Other observations

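Intervals of 156 bp that did hold enough reads for the test, 262 in number, were examined after the data were seen. They are not low-count intervals but share their length. With age 120 of them rose and 8 fell in non-neurons (45.8% and 3.05%, against 28.5% and 25.8% of all tested intervals), and in neurons 33 rose and 14 fell (12.6% and 5.34%, against 31.0% and 26.3%), both shares below those of all tested intervals. At P21 1 was higher and 56 were lower in neurons than in non-neurons (0.382% and 21.4%, against 20.8% and 15.0%; edgeR, adjusted p under 0.05). Their share of autosomal reads was 0.0635% ± 0.00391 in neurons at P0 and 0.0829% ± 0.00729 at P21, and 0.0705% ± 0.00758 in non-neurons at P0 and 0.12% ± 0.025 at P21 (SD over 5 libraries). The 2 age differences and the cell type difference at P21 had p = 0.00794, the smallest that 5 against 5 libraries can give (two-sided exact permutation, adjusted p = 0.0106 over 4 tests). The difference at P0 had p = 0.0794 (exact permutation, adjusted 0.0794). The read filter admits an interval with enough reads in 5 libraries, which can be those of 1 group. An interval may thus have entered through the group where it is high. These counts and p-values therefore describe the 262 and cannot separate a change in 156 bp intervals from the choice made by the filter. The tested neighbours of low-count intervals, in contrast, fell more often than they rose in both cell types. How far reads are shared between copies of this length was not tested.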
